A study of Homo sapiens with 9 samples.

Results

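A set of 33 genes known as direct transcriptional targets of the tumour suppressor p53 was followed in HEYA8 ovarian cancer cells after 24 h with DMSO, sunitinib or compound 32. The genes were picked by symbol. They, their roles and the gene lists set beside them were chosen with earlier results of these data known. All 33 were found among the 58735 genes of the count table, and 32 of them were among the 15232 genes with enough reads to be tested. The remaining gene, CMBL, which encodes a carboxymethylenebutenolidase homolog, had 2 reads in sunitinib replicate 3 and none in the other 8 libraries. A count of 0 allows up to 0.159 to 0.195 CPM (reads of a gene per 1000000 reads of the scaled library) across the libraries, so CMBL was not detectable at this depth and entered no test. Intervals and limits of this kind cover counting error only.

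HEYA8 is an established human cell line, and the labels call it high-grade serous and give its genotype as WT without naming a gene. All cells were grown in DMEM with serum and belong to the same labelled batch day. DMSO is the solvent control (3 libraries). Sunitinib, a drug that blocks the VEGF and PDGF receptors and related kinases, was given to 3 libraries, and compound 32, known here only by its code name, to the other 3. No dose was stated for either compound in the sources read, so the compounds are compared at matched time but at doses that may differ. The study set each compound against DMSO to describe its effect on the transcriptome, in work on sunitinib and DNA repair. No group carries a p53 deletion, so dependence of any value on p53 was not measured. Biological replicates are stated for DMSO and sunitinib only. For compound 32, p-values use a spread estimated over all 9 libraries, and the part from its own 3 libraries may be technical.

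Library totals ran from 15498101 to 18006171 counts. Sunitinib replicate 3 stood apart from its group. Ribosomal protein genes took 6.95% of its reads and mitochondrial genes took 5.36%, against 3.70 to 4.51% and 3.42 to 3.92% in the other 8 libraries. Its chi-square per degree of freedom against the other sunitinib libraries was 47.6 and 46.0, and no other pair of replicates exceeded 3.23. Test calls of the 33 genes, and counts of those calls, that move without it are given both ways. Of the serous ovarian markers, PAX8 was at 129 to 136 CPM in DMSO, 114 to 130 CPM with sunitinib and 116 to 118 CPM with compound 32. It was called in no comparison. MUC16 did not exceed 0.325 CPM and EMX2 0.0529 CPM. WT1 was lower with sunitinib (4.71 to 5.46 CPM) than in DMSO (10.9 to 13.1 CPM), a log2 change of -1.27 ± 0.13, and was at 9.44 to 11.4 CPM with compound 32. SOX17 was at 2.59 to 3.66 CPM in DMSO and 2.21 to 3.22 CPM with sunitinib. It was called higher with compound 32, at 4.14 to 5.26 CPM. SOX17 was the only 1 of the 3 tested serous ovarian markers with a positive change with compound 32, and their median was -0.18. Of the epithelial markers, KRT7 rose by 1.63 ± 0.07 with sunitinib, the only 1 of the 5 tested that was called there. With sunitinib 2 of the 5 had a positive change, and the median was -0.05. KRT8 and KRT18 rose by 0.31 ± 0.06 and 0.29 ± 0.09 with compound 32. These were the only 2 of the 5 tested epithelial markers with a positive change with compound 32, and the median was -0.13. EPCAM did not exceed 2.54 CPM and KRT19 1.43 CPM. The mesenchymal marker VIM was at 3289 to 4527 CPM, and 1 of 4 tested mesenchymal markers was lower with each compound. KRT8 was at 627 to 905 CPM, but the epithelial cadherin CDH1 was at 0 in 7 libraries and at most 0.130 CPM in the others. Of the 5 leukocyte markers, PTPRC and CD3E were at 0 in every library except sunitinib replicate 3, CD14 did not exceed 0.585 CPM and LYZ 0.130 CPM, but CD79A was at 8.95 to 12.6 CPM and was called in no comparison. The haemoglobin gene HBB was at 0 in all 9 libraries. The list of 5 endothelial and erythroid markers summed to 7.39 to 10.3 CPM in DMSO, 13.6 to 17.4 CPM with sunitinib and 5.44 to 6.14 CPM with compound 32. Most of this was the endothelial cadherin CDH5, at 3.82 to 15.3 CPM, while PECAM1 did not exceed 1.62 CPM. Of its 3 tested genes 1 was higher with sunitinib and 1 lower with compound 32. The part of these markers in the results was not tested.

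The p53 protein binds DNA as a tetramer and switches on genes after DNA damage and other stress. In unstressed cells it is kept low by MDM2, a ubiquitin ligase, together with its partner MDM4. Because MDM2 is itself a p53 target, its transcript is a widely used readout of p53 activity. Other targets stop the cell cycle, promote cell death, or adjust metabolism and DNA precursor supply, and the members were grouped by these roles. In bulk RNA, more cells of a state and more RNA per cell cannot be told apart.

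The p53 protein recognises paired 10-base elements, each with a C and a G at fixed positions and purines and pyrimidines on either side. RefSeq promoter windows on GRCh38.p14, of 250 bases before to 50 after a transcription start, were matched for 25 of the 33 genes (38 windows). The p53 consensus element reads the same on both strands and was searched as 2 elements with 0 to 13 bases between them and at most 2 mismatches in all. Such a match was in 8 of the 38 windows (21.1%), against 7.82% of all 35116 windows of this length. By gene, it was in 5 of 25 (20%), against 9.53% of 27305. These are letter matches in windows that can overlap within a gene, and no binding was measured.

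All 5 genes with a match are shown. MDM2, FAS and FDXR were higher with compound 32, AEN was called in opposite directions with the compounds, and CCNG1 was called in neither. Capitals mark the elements, each pair has 2 mismatches, and sequences run 5′ to 3′ on the strand of the gene. The MDM2 stretch is at chr12:68808893-68809001 on the plus strand, inside the gene and outside annotated exons, and its match starts 94 bases before a RefSeq start site. The FAS stretch is at chr10:88991304-88991333 (plus strand), in exons of both FAS and ACTA2, which lie on opposite strands. The AEN stretch is at chr15:88621301-88621330 (plus strand) in an AEN exon, and the FDXR stretch at chr17:74872996-74873025 (minus strand) in an FDXR exon. The CCNG1 stretch is at chr5:163437529-163437557 (plus strand), where the annotation lists no gene. In both CCNG1 elements the mismatch is an A at the place of the fixed C.
MDM2: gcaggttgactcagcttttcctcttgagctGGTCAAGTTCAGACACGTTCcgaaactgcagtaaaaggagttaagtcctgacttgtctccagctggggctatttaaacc
FAS: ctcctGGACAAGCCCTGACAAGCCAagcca
AEN: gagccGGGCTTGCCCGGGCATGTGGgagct
FDXR: GGGCGGGCCCgggcaggagcGGGCTTGCCC
CCNG1: GAAAATGCCCccttctcgcGAGAAAGCCC
The elements of MDM2, FAS and AEN adjoin each other, and those of FDXR and CCNG1 are spaced by 10 and 9 bases.

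With compound 32, most of the p53 targets were higher than in DMSO. Of the 32 tested, 22 rose, 2 fell (MDM4 and PLK2) and 8 did not pass the test. In edgeR's quasi-likelihood F test with Benjamini-Hochberg adjustment over all genes, 12% of all 15232 genes were higher in this comparison and 10.3% lower (22.3% called). The members' shares were 68.8% higher and 6.25% lower. Their median log2 fold change was 0.37, against -0.00 for all genes tested, and 28 of 32 were positive. Changes were modest in size, since only BTG2 and TP53INP1 reached 2-fold. In 25 members all 3 compound 32 libraries lay above all 3 DMSO libraries, and in 3 they lay below; among all genes these shares were 24.7% and 24.4%. Without sunitinib replicate 3, which enters the shared estimate of the spread, 26 members were higher and 2 lower, and the background was 21.6% higher and 20.5% lower (42% called).

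With sunitinib, fewer members were called higher. Of the 32 tested, 12 were higher than in DMSO, 2 were lower (PPM1D and AEN) and 18 did not pass the test. Among all genes 20.3% were higher and 19.9% lower (40.2% called). The members' share called in either direction, 43.8%, was near that background, while the share called higher was 37.5%. Their median log2 fold change was 0.15, against 0.02 for all genes, and none reached 2-fold. Without sunitinib replicate 3, 15 members were higher and 5 lower, against a background of 25.1% and 26.3%. In 15 members all sunitinib libraries lay above all DMSO libraries, and in 4 they lay below, against 25.8% and 25.1% of all genes.

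Set directly against sunitinib, compound 32 gave higher levels of 16 members and lower levels of 4 (MDM4, PLK2, TP53I3 and ANKRA2). The background was 24.1% higher and 25.2% lower (49.2% called), so a call in this comparison was common. The members' median was 0.18, against -0.03 for all genes. In 17 members the compound 32 libraries all lay above the sunitinib libraries and in 5 below, against 27.8% and 29% of all genes. With upper-quartile scaling the split was 11 higher and 7 lower, and the background median moved to -0.12. Leaving out sunitinib replicate 3 gave 20 higher and 4 lower, against a background of 29.7% and 29%. The comparisons of each compound with DMSO share the same control libraries, so their values are given side by side and the direct comparison is the test of a difference.

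**Figure D1:**
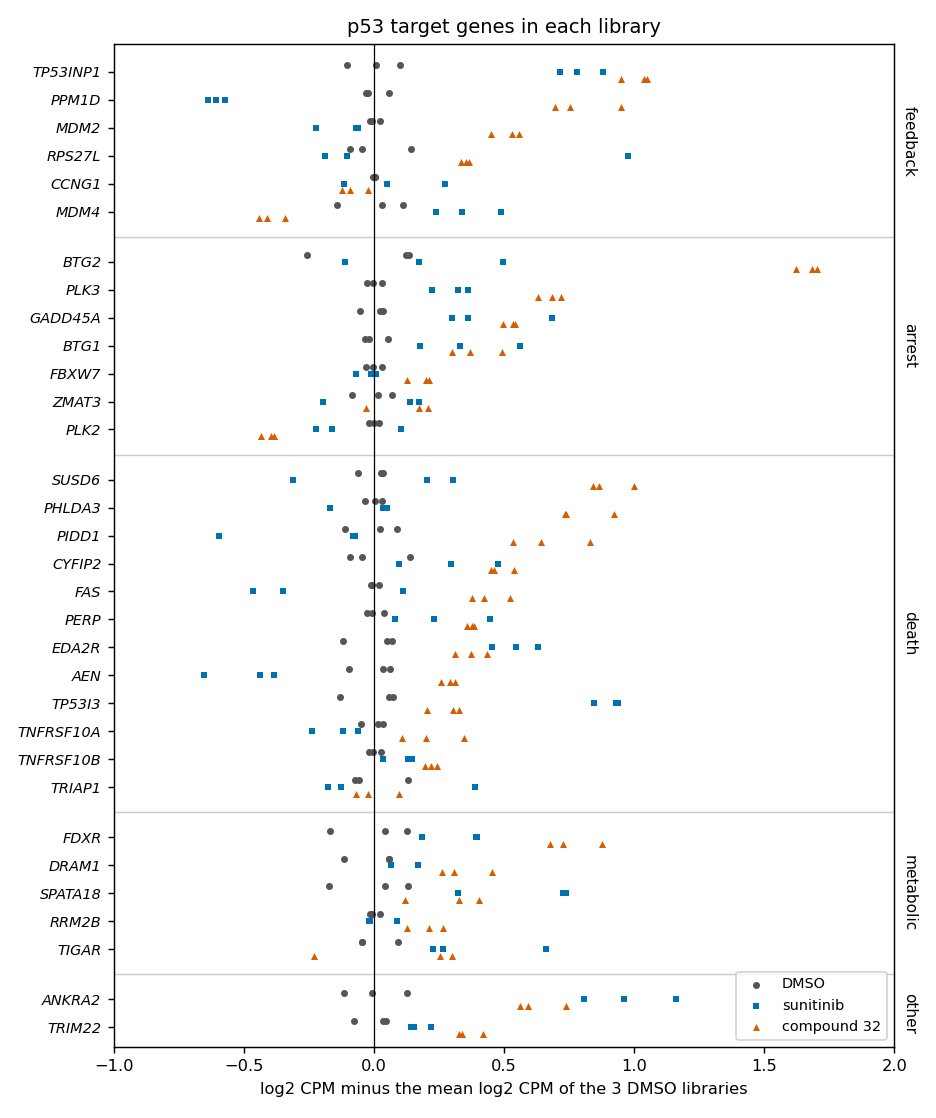
Each row is 1 of the 32 tested p53 targets, grouped by role, and each point is 1 library (3 each for DMSO, sunitinib and compound 32) placed by its log2 CPM minus the mean log2 CPM of the DMSO libraries. Most compound 32 points lie to the right of 0, and 1 sunitinib library lies far from the others in RPS27L.

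**Figure D2:**
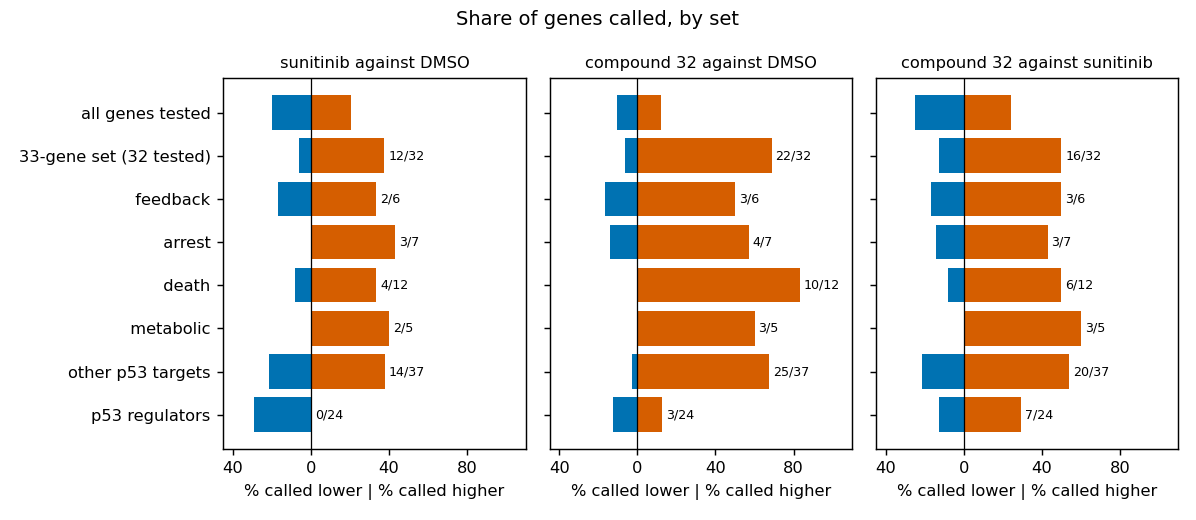
Bars give the percent of tested genes called higher (to the right of 0) or lower (to the left) in each comparison, for all genes tested, the 32 p53 targets, their main roles and the lists of other targets and of regulators; the numbers beside bars are genes called higher of those tested. The targets called higher make up 37.5%, 68.8% and 50% for sunitinib against DMSO, compound 32 against DMSO and compound 32 against sunitinib, against 20.3%, 12% and 24.1% of all genes.

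In the role descriptions that follow, calls lost or gained refer to the 9 fits that each leave out 1 library. Every call lost under another scaling, filter, tool or threshold was among those lost in such a fit. With upper-quartile scaling 6 more calls were made: TNFRSF10B (0.19), DRAM1 (0.22) and TRIM22 (0.25) were higher with sunitinib than with DMSO, and CCNG1 (-0.24), EDA2R (-0.26) and SPATA18 (-0.41) were lower with compound 32 than with sunitinib. A fit of only the 6 libraries compared put 26 members higher and 2 lower for compound 32 against DMSO (43.9% of all genes called). RPS27L (0.35), FBXW7 (0.18), TNFRSF10A (0.22) and SPATA18 (0.28), not called with all 9 libraries, were among the higher. For compound 32 against DMSO, 7 calls were lost in some fit that leaves out 1 library (BTG1, TNFRSF10B, FAS, AEN, TP53I3, RRM2B and DRAM1). All 7 were kept with only the 6 libraries compared. They were also kept without sunitinib replicate 3, with edgeR adjusted p from 2.13e-10 (FAS) to 0.00661 (TP53I3).

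The feedback genes, which act back on p53 itself, included 2 that the compounds moved in opposite directions. With compound 32, MDM2, PPM1D and TP53INP1 rose and MDM4 fell, out of 6 genes. With sunitinib, TP53INP1 and MDM4 rose and PPM1D fell. The share called was 66.7% with compound 32 and 50% with sunitinib, against 22.3% and 40.2% of all genes. Without sunitinib replicate 3 the counts were 4 higher and 1 lower for compound 32 (background 42% called). For sunitinib they were 2 higher and 2 lower (background 51.4%), and the median moved from 0.20 to -0.05. MDM2, on chromosome 12 from 68808176 to 68850686 (GRCh38), was at 234, 227 and 229 CPM in DMSO, at 219, 220.2 and 197 CPM with sunitinib, and at 332, 339 and 314 CPM with compound 32. All compound 32 libraries were above every other library. The increase over DMSO was 1.43-fold (log2 0.51 ± 0.07, SE, n = 3 per group; edgeR adjusted p = 0.000264). For sunitinib the log2 difference was -0.12 ± 0.07 and did not pass the test (edgeR adjusted p = 0.180), and the compounds differed by 0.63 ± 0.07 (edgeR adjusted p = 1.41e-05).

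PPM1D, the phosphatase WIP1, which removes activating phosphates from p53 and its kinases, moved in opposite directions. It was at 26.9, 26.8 and 28.5 CPM in DMSO, at 17.6, 18.4 and 17.9 CPM with sunitinib, and at 44.4, 46.2 and 52.9 CPM with compound 32. No 2 groups overlapped. PPM1D fell by 0.61 ± 0.09 on the log2 scale with sunitinib (edgeR adjusted p = 0.000219) and rose by 0.80 ± 0.08 with compound 32 (edgeR adjusted p = 5.08e-05). The direct difference was 2.66-fold (1.41 ± 0.09).

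MDM4, the partner that inhibits p53 without being a ligase of its own, changed the other way. Its levels were 35.6, 31.7 and 37.8 CPM in DMSO, 44.1, 41.2 and 49.0 CPM with sunitinib, and 25.7, 26.2 and 27.6 CPM with compound 32. Again the 3 groups were fully separate. The log2 changes were 0.36 ± 0.09 with sunitinib (edgeR adjusted p = 0.00832) and -0.40 ± 0.09 with compound 32 (edgeR adjusted p = 0.00922), and the compounds differed by -0.76 ± 0.09.

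TP53INP1, a nuclear cofactor that promotes p53 phosphorylation and also acts in autophagy, was higher with both compounds. It was at 25.1, 21.8 and 23.5 CPM in DMSO, at 43.1, 40.3 and 38.5 CPM with sunitinib, and at 48.6, 48.2 and 45.3 CPM with compound 32. Both treated groups were above DMSO and did not overlap each other. The rises were 1.73-fold (log2 0.79 ± 0.08, edgeR adjusted p = 1.93e-05) and 2.02-fold (1.01 ± 0.08, edgeR adjusted p = 7.34e-06). The difference between the compounds was small (0.22 ± 0.08, edgeR adjusted p = 0.0353). That call was lost without sunitinib replicate 2 or without compound 32 replicate 1 or 2, with values of 0.20 to 0.21 and adjusted p from 0.0762 to 0.103.

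RPS27L, a ribosomal protein S27 paralog that binds MDM2, depended on 1 library. It was at 70.9, 80.8 and 68.6 CPM in DMSO, at 64.3, 68.1 and 144 CPM with sunitinib, and at 94.5, 93.6 and 92.3 CPM with compound 32. Sunitinib replicate 3 was far above the other sunitinib libraries. The same library held 687 CPM of the paralog RPS27, against 125 to 180.3 CPM in the other 8. With all libraries RPS27L was called in no comparison. Without sunitinib replicate 3 it was lower with sunitinib (-0.15, edgeR adjusted p = 0.0276), higher with compound 32 (0.35, edgeR adjusted p = 1.77e-07) and higher with compound 32 than with sunitinib (0.50, edgeR adjusted p = 1.28e-10). No source read here says how reads shared with RPS27 were counted, so its level is uncertain.

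CCNG1, cyclin G1, which recruits a phosphatase to MDM2, passed the test in no comparison. DMSO libraries were at 138 to 139 CPM, sunitinib libraries at 128 to 168 CPM and compound 32 libraries at 128 to 137 CPM. The log2 difference between the compounds was -0.16, with a 95% interval of -0.35 to 0.03, and without sunitinib replicate 2 it was -0.24 and called (edgeR adjusted p = 0.0243).

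**Figure D3:**
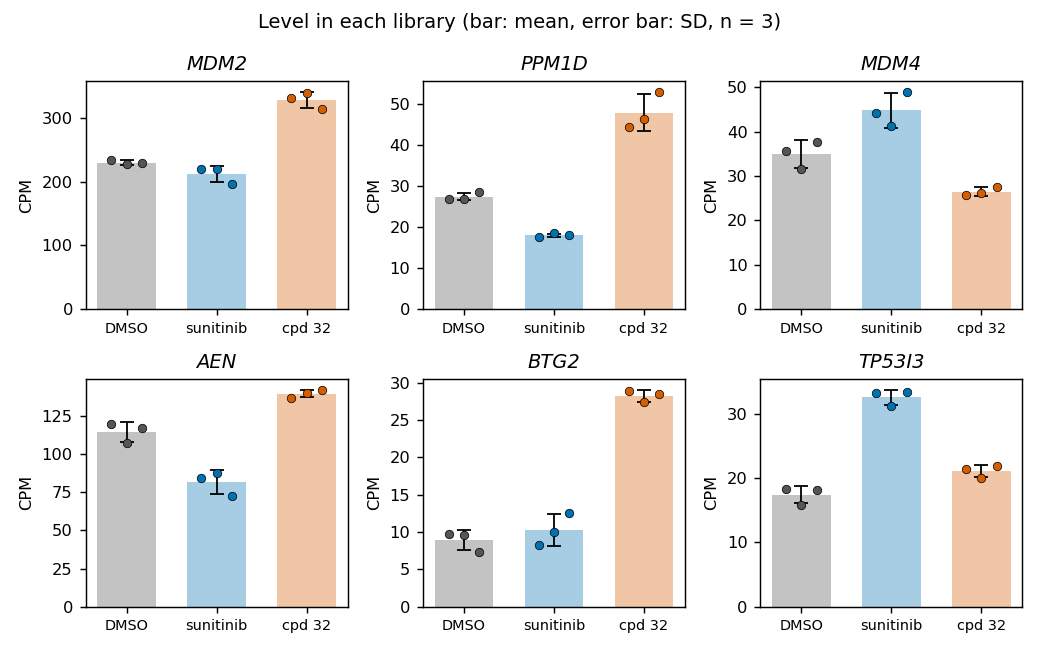
Points give the CPM of 6 p53 targets in each library by treatment (cpd 32 is compound 32), bars the group mean and error bars 1 SD (n = 3). MDM2, PPM1D, BTG2 and AEN are highest with compound 32, and MDM4 and TP53I3 with sunitinib.

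Among the 7 genes that slow the cell cycle, 4 rose with compound 32 (BTG1, BTG2, GADD45A and PLK3) and PLK2 fell. With sunitinib 3 rose (BTG1, GADD45A and PLK3) and none fell. The share called was 71.4% with compound 32, against 22.3% of all genes, and 42.9% with sunitinib, near the 40.2% of all genes. Without sunitinib replicate 3 the counts were 5 higher and 1 lower for compound 32 (background 42% called). For sunitinib they were 4 higher and 1 lower of the 7 (background 51.4%). BTG2, an antiproliferative partner of the CCR4-NOT deadenylase, had the largest change of all members. It was at 9.73, 9.65 and 7.40 CPM in DMSO, at 8.20, 9.98 and 12.5 CPM with sunitinib, and at 28.9, 27.3 and 28.5 CPM with compound 32. The compound 32 libraries were above all others, and sunitinib overlapped DMSO. BTG2 rose 3.16-fold with compound 32 (log2 1.66 ± 0.15, edgeR adjusted p = 1.81e-05), and was 2.78-fold higher than with sunitinib (1.47 ± 0.15, edgeR adjusted p = 8.99e-06). For sunitinib the log2 difference was 0.19 ± 0.16.

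GADD45A, which binds PCNA and CDK1 in the damage checkpoint, was higher with both compounds. Its levels were 107, 108 and 102 CPM in DMSO, 130.1, 136 and 169.8 CPM with sunitinib, and 149, 153 and 154 CPM with compound 32. Both treated groups lay above DMSO and overlapped each other. The log2 rises were 0.46 ± 0.09 and 0.52 ± 0.09 (edgeR adjusted p = 0.00214 and 0.00201). The compounds differed by 0.07, with a 95% interval of -0.13 to 0.26. GADD45A was higher with compound 32 than with sunitinib once sunitinib replicate 3 was left out (0.20, edgeR adjusted p = 0.000314).

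PLK3, a stress-activated polo-like kinase, was graded across the groups. It was at 40.3 to 41.9 CPM in DMSO, at 48.0 to 52.8 CPM with sunitinib and at 63.7 to 67.6 CPM with compound 32, with no overlap. The log2 rises were 0.30 ± 0.07 and 0.68 ± 0.07, and the direct difference was 0.37 ± 0.07 (edgeR adjusted p = 0.000618). PLK2, a related kinase and, per kilobase of exon, the highest member in DMSO at 138 CPM per kb, was lower with compound 32. It was at 657, 666 and 648 CPM in DMSO, at 563, 588 and 706 CPM with sunitinib, and at 498, 486 and 503 CPM with compound 32. Compound 32 libraries were below all others, and PLK2 fell by 0.41 ± 0.08 on the log2 scale (edgeR adjusted p = 0.00519). For sunitinib the log2 difference was -0.09 ± 0.08, and without replicate 3 it was -0.19 and called (edgeR adjusted p = 9.79e-06).

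BTG1, related to BTG2, was at 59.9 to 63.6 CPM in DMSO, 69.3 to 90.4 CPM with sunitinib and 75.5 to 86.2 CPM with compound 32. It rose by 0.36 ± 0.09 and 0.39 ± 0.09 on the log2 scale (edgeR adjusted p = 0.00970 and 0.0125). The compound 32 call was lost without DMSO replicate 2 or 3 or compound 32 replicate 3, at 0.33 to 0.37 and adjusted p from 0.0533 to 0.0653. Compared directly, BTG1 was higher with compound 32 than with sunitinib only without sunitinib replicate 3 (0.14, edgeR adjusted p = 0.0455). FBXW7, a substrate receptor of an SCF ubiquitin ligase that degrades cyclin E, was higher with compound 32 than with sunitinib (0.20 ± 0.07, edgeR adjusted p = 0.0289). That call was lost without sunitinib replicate 1 or compound 32 replicate 2 or 3 (0.19 to 0.21, adjusted p from 0.0603 to 0.0819). With compound 32 against DMSO, FBXW7 was not called with all 9 libraries. It was called without sunitinib replicate 3 (0.18, edgeR adjusted p = 0.0261) and with only the 6 libraries compared (0.18, edgeR adjusted p = 0.0293). ZMAT3, an RNA-binding zinc finger protein, was at 186 to 245 CPM across all libraries. It was called only for sunitinib without replicate 3 (0.15, edgeR adjusted p = 0.0201).

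The cell death genes gave the most calls with compound 32, where 10 of 12 rose and none fell. With sunitinib 4 rose (EDA2R, PERP, CYFIP2 and TP53I3) and AEN fell. The share called was 83.3% with compound 32, against 22.3% of all genes, and 41.7% with sunitinib, near the background of 40.2%. Without sunitinib replicate 3 these counts were 11 higher for compound 32 (background 42% called), and 6 higher and 2 lower for sunitinib (background 51.4%). Among the death receptors on the cell surface, FAS was at 67.8, 66.3 and 66.4 CPM in DMSO, at 52.4, 48.4 and 72.2 CPM with sunitinib, and at 86.8, 95.9 and 89.5 CPM with compound 32. Compound 32 libraries were the highest, and sunitinib replicates 1 and 2 were below DMSO while replicate 3 was above. FAS rose by 0.44 ± 0.12 on the log2 scale with compound 32 (edgeR adjusted p = 0.0224). That call was lost without any 1 DMSO or compound 32 library (0.39 to 0.47, adjusted p from 0.0534 to 0.0931). It was kept without sunitinib replicate 3 (0.44, edgeR adjusted p = 2.13e-10). With all 9 libraries FAS was 1.57-fold higher with compound 32 than with sunitinib (0.65 ± 0.12, edgeR adjusted p = 0.000939). For sunitinib it was not called (-0.21 ± 0.12), and without replicate 3 it was lower (-0.41, edgeR adjusted p = 1.02e-07). FAS shares 380 exon bases (8.93% of its exons) with ACTA2 on the other strand, which rose by 1.03 ± 0.11 with sunitinib. No source read here says whether reads were counted by strand.

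TNFRSF10B (DR5), a receptor for the death ligand TRAIL, was at 268 to 277 CPM in DMSO, 278 to 300.3 CPM with sunitinib and 311 to 321 CPM with compound 32. The groups were separate, and the rise with compound 32 was small (0.22 ± 0.06, edgeR adjusted p = 0.0222). It was lost without any 1 DMSO or compound 32 library (0.20 to 0.23, adjusted p from 0.0671 to 0.0977), and the sunitinib difference was called only without replicate 3 (0.14, edgeR adjusted p = 0.00305). TNFRSF10A (DR4), the other TRAIL receptor, was at 45.7 to 48.5, 40.1 to 45.3 and 50.9 to 60.1 CPM in the same order. It was higher with compound 32 than with sunitinib (0.36 ± 0.08, edgeR adjusted p = 0.00311). With all 9 libraries its rise over DMSO was not called. That rise was called without sunitinib replicate 3 (0.22, edgeR adjusted p = 0.00237) and with only the 6 libraries compared (0.22, edgeR adjusted p = 0.00343). EDA2R, the ectodysplasin A2 receptor, rose with both compounds, from 36.0 to 41.1 CPM in DMSO to 53.6 to 60.5 CPM with sunitinib (0.54 ± 0.08) and 48.6 to 52.8 CPM with compound 32 (0.37 ± 0.08). The direct log2 difference of -0.17 did not pass the test (edgeR adjusted p = 0.0851), with a 95% interval of -0.34 to -0.00.

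AEN, an exonuclease that digests DNA in apoptosis, was called in opposite directions. It was at 119.6, 107 and 117 CPM in DMSO, at 84.6, 87.7 and 72.8 CPM with sunitinib, and at 137, 140.1 and 142 CPM with compound 32. The 3 groups were separate, with sunitinib lowest. AEN fell by 0.49 ± 0.08 on the log2 scale with sunitinib (edgeR adjusted p = 0.000504) and rose by 0.29 ± 0.08 with compound 32 (edgeR adjusted p = 0.0216). The rise was lost without DMSO replicate 2 or 3 or any 1 compound 32 library (0.23 to 0.30, adjusted p from 0.0593 to 0.108). The compounds differed by 0.77 ± 0.08 (edgeR adjusted p = 1.07e-05), a call held with each of the 9 libraries left out.

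TP53I3 (PIG3), a quinone oxidoreductase linked to reactive oxygen species, was the death gene with the largest rise under sunitinib. It was at 18.3, 15.9 and 18.1 CPM in DMSO, at 33.1, 31.2 and 33.4 CPM with sunitinib, and at 21.5, 20.03 and 21.8 CPM with compound 32. Sunitinib libraries were above all others, and compound 32 libraries lay between. The sunitinib rise was 1.87-fold (0.90 ± 0.09, edgeR adjusted p = 1.16e-05), and compound 32 against sunitinib gave -0.63 ± 0.08 (edgeR adjusted p = 9.70e-05). The compound 32 rise over DMSO (0.28 ± 0.09, edgeR adjusted p = 0.0412) was lost in 8 of the 9 fits that leave out 1 library, all but the one without sunitinib replicate 3, at 0.21 to 0.31 and adjusted p from 0.0514 to 0.169.

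PHLDA3, a repressor of AKT signalling, and SUSD6, a membrane protein induced after damage, both rose with compound 32. PHLDA3 was at 67.5, 65.9 and 69.0 CPM in DMSO, at 69.9, 69.1 and 59.95 CPM with sunitinib, and at 112, 112 and 128 CPM with compound 32. SUSD6 was at 20.8, 20.7 and 19.5 CPM, then 25.1, 23.4 and 16.4 CPM, then 36.5, 37.1 and 40.7 CPM. In both genes compound 32 libraries were above all others and sunitinib overlapped DMSO. The rises with compound 32 were 1.74-fold (0.80 ± 0.08, edgeR adjusted p = 3.83e-05) and 1.87-fold (0.90 ± 0.13, edgeR adjusted p = 0.000638). Neither was called for sunitinib (-0.02 ± 0.08 and 0.09 ± 0.13), but without sunitinib replicate 3 SUSD6 was higher (0.26, edgeR adjusted p = 0.0118).

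PIDD1, the scaffold of the PIDDosome that activates caspase-2, was at 15.8, 17.4 and 18.2 CPM in DMSO, at 16.3, 16.2 and 11.3 CPM with sunitinib, and at 24.8, 26.7 and 30.4 CPM with compound 32. Compound 32 libraries were the highest, and PIDD1 rose by 0.67 ± 0.14 over DMSO (edgeR adjusted p = 0.00479) and by 0.90 ± 0.14 over sunitinib. It shares 107 exon bases with RPLP2, a highly expressed ribosomal protein gene on the other strand. RPLP2 itself was called in no comparison (0.52 ± 0.19 for sunitinib and 0.16 ± 0.19 for compound 32).

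PERP, a desmosomal membrane protein, was at 104 to 108 CPM in DMSO, 112 to 144 CPM with sunitinib and 136 to 138 CPM with compound 32. It rose by 0.26 ± 0.08 and 0.37 ± 0.08 on the log2 scale. The sunitinib call (edgeR adjusted p = 0.0284) was lost without any 1 DMSO or compound 32 library, at 0.24 to 0.27 and adjusted p from 0.0510 to 0.103. Compared directly, PERP was higher with compound 32 only without sunitinib replicate 3 (0.22, edgeR adjusted p = 0.000146). CYFIP2, a subunit of the WAVE actin regulator, was at 36.2 to 42.5, 41.2 to 53.7 and 52.8 to 56.1 CPM, and rose by 0.30 ± 0.10 and 0.48 ± 0.10. Its sunitinib call (edgeR adjusted p = 0.0341) was lost in 7 of the 9 fits that leave out 1 library, all but those without DMSO replicate 3 and sunitinib replicate 3, at 0.19 to 0.29 and adjusted p from 0.0561 to 0.146. It differed between the compounds only without sunitinib replicate 1 (0.28, edgeR adjusted p = 0.0332). TRIAP1, a small inhibitor of apoptosis, was at 39.1 to 57.8 CPM across all libraries and passed no test.

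**Figure D4:**
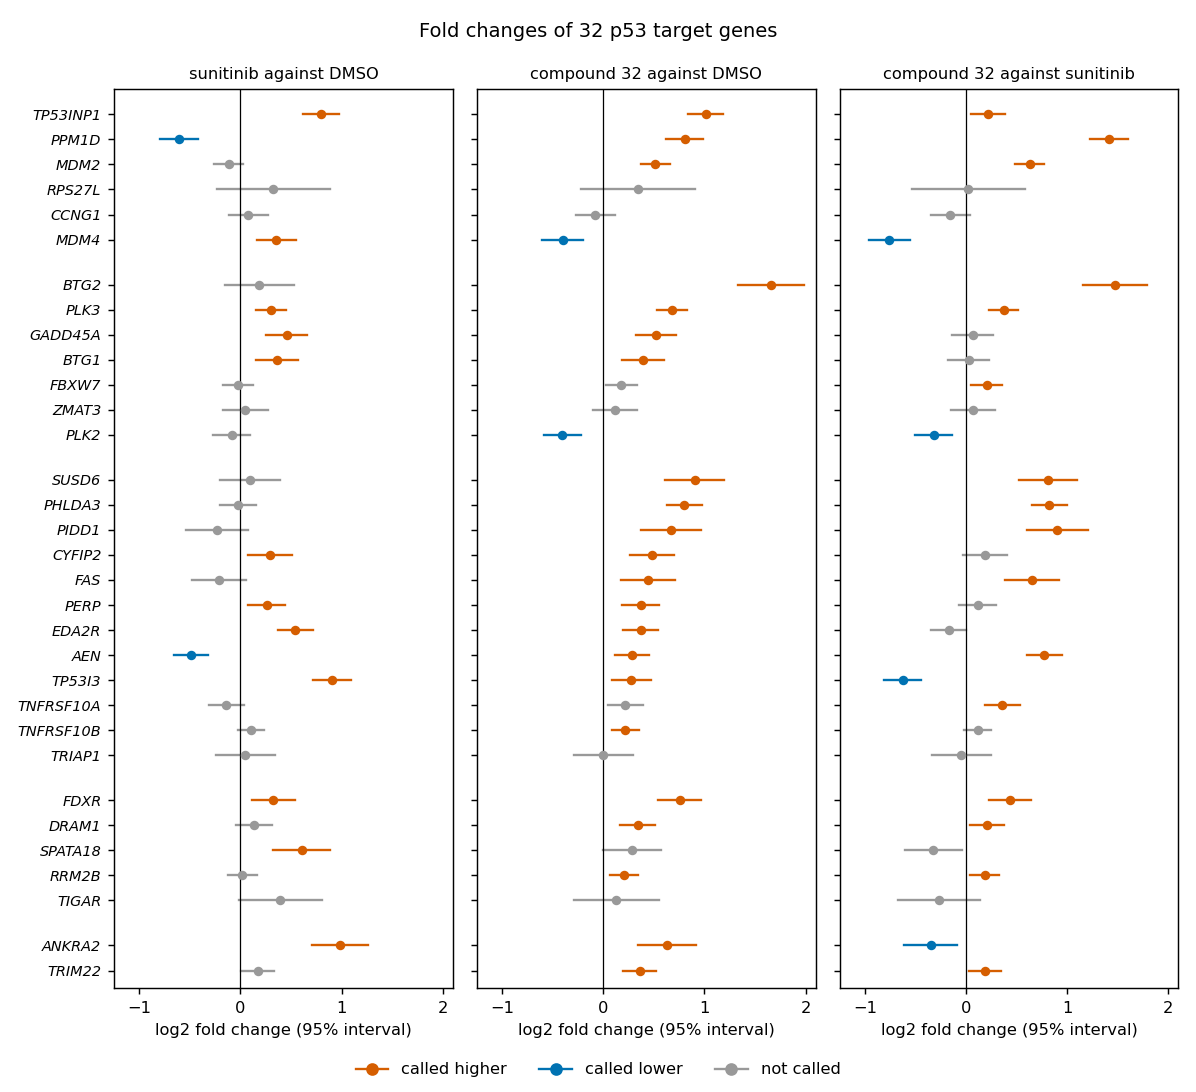
Points give the log2 fold change of each tested p53 target in the 3 comparisons, in the same row order by role, with lines for the 95% interval of the edgeR fit (n = 3 libraries per group) and colour for called higher, called lower or not called. BTG2 is farthest to the right at 1.66 for compound 32 against DMSO, and PPM1D and AEN lie on opposite sides of 0 for the compounds.

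Of the 5 tested genes of metabolism and DNA precursor supply, 3 rose with compound 32 (FDXR, RRM2B and DRAM1) and 2 with sunitinib (FDXR and SPATA18). None fell. The share called was 60% with compound 32, against 22.3% of all genes, and 40% with sunitinib, level with the 40.2% of all genes. Without sunitinib replicate 3 the counts were 4 higher for compound 32 (background 42% called) and 2 higher for sunitinib (background 51.4%). FDXR, the mitochondrial ferredoxin reductase that supplies electrons for steroid and iron-sulphur cluster synthesis, was at 28.99, 33.6 and 35.6 CPM in DMSO, at 42.8, 42.8 and 37.1 CPM with sunitinib, and at 52.0, 54.0 and 59.8 CPM with compound 32. The groups were separate and graded. FDXR rose by 0.32 ± 0.10 with sunitinib (edgeR adjusted p = 0.0202) and by 0.76 ± 0.10 with compound 32 (edgeR adjusted p = 0.000254). The sunitinib call was lost without DMSO replicate 1 or 2 or sunitinib replicate 1 or 2 (0.24 to 0.33, adjusted p from 0.0505 to 0.101). The compounds differed by 0.43 ± 0.10 (edgeR adjusted p = 0.00276).

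SPATA18 (MIEAP), which acts in mitochondrial quality control, was at 16.0, 19.7 and 18.5 CPM in DMSO, at 30.01, 29.8 and 22.5 CPM with sunitinib, and at 23.8, 22.5 and 19.5 CPM with compound 32. All sunitinib libraries were above DMSO, with replicate 3 the lowest of them, and compound 32 overlapped both. The sunitinib rise was 0.60 ± 0.13 (edgeR adjusted p = 0.00330). For compound 32 the difference from DMSO was 0.28 ± 0.13 and that from sunitinib -0.32 ± 0.13, neither called. Both were called without sunitinib replicate 3 (0.28, edgeR adjusted p = 0.00869, and -0.44, edgeR adjusted p = 3.92e-05). The difference from sunitinib was also called with upper-quartile scaling or library totals (edgeR adjusted p = 0.0196 and 0.0349). It was called as well with no filter on low counts, or with at least 1 CPM in 3 libraries (edgeR adjusted p = 0.0351 and 0.0484).

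RRM2B, the p53-inducible subunit of ribonucleotide reductase, was at 248 to 255 CPM in DMSO, 247 to 267 CPM with sunitinib and 273 to 301 CPM with compound 32. It rose by 0.20 ± 0.06 with compound 32 (edgeR adjusted p = 0.0412), a call lost without sunitinib replicate 2 or any 1 DMSO or compound 32 library (0.16 to 0.24, adjusted p from 0.0505 to 0.178). Its difference between the compounds (0.18 ± 0.06, edgeR adjusted p = 0.0324) was lost without DMSO replicate 1 or 2, sunitinib replicate 2 or compound 32 replicate 1 or 2 (0.15 to 0.19, adjusted p from 0.0507 to 0.128). DRAM1, a lysosomal membrane protein of autophagy, was at 42.2 to 47.6, 47.9 to 51.4 and 54.8 to 62.6 CPM, and rose by 0.34 ± 0.08 with compound 32 (edgeR adjusted p = 0.00973). That call was lost without DMSO replicate 2 or compound 32 replicate 3 (0.28 in both, adjusted p from 0.0529 to 0.0545). Its difference between the compounds (0.21 ± 0.08, edgeR adjusted p = 0.0454) was lost without DMSO replicate 1 or 3, sunitinib replicate 1 or 2 or compound 32 replicate 2 or 3 (0.15 to 0.23, adjusted p from 0.0520 to 0.164). TIGAR, a phosphatase that slows glycolysis, was the lowest tested member per kilobase at 0.910 CPM per kb in DMSO. It was at 3.10 to 5.79 CPM in all libraries and passed no test, with 95% intervals of -0.02 to 0.80 for sunitinib and -0.29 to 0.55 for compound 32.

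The members outside these roles are ANKRA2, an ankyrin repeat protein that binds histone deacetylases, and TRIM22, an antiviral ubiquitin ligase. ANKRA2 was at 5.97, 7.07 and 6.43 CPM in DMSO, at 12.7, 11.3 and 14.5 CPM with sunitinib, and at 9.57, 9.76 and 10.8 CPM with compound 32. The 3 groups were separate, with sunitinib highest. It had the largest sunitinib rise of all members, 1.97-fold (0.98 ± 0.13, edgeR adjusted p = 0.000112), and rose by 0.63 ± 0.13 with compound 32 (edgeR adjusted p = 0.00513). The difference between the compounds (-0.35 ± 0.12, edgeR adjusted p = 0.0317) was lost without sunitinib replicate 1 or 3 or compound 32 replicate 1 or 2 (-0.36 to -0.25, adjusted p from 0.0570 to 0.103). ANKRA2 shares 244 exon bases (9.18%) with UTP15 on the other strand, which was lower with sunitinib (-0.45 ± 0.08) and with compound 32 (-0.51 ± 0.08). TRIM22 was at 26.0 to 28.4, 30.3 to 32.0 and 34.5 to 36.7 CPM, with no overlap. It rose by 0.36 ± 0.07 with compound 32 (edgeR adjusted p = 0.00498) and was not called for sunitinib (0.17 ± 0.07, edgeR adjusted p = 0.0865). Its difference between the compounds (0.19 ± 0.07, edgeR adjusted p = 0.0481) was lost in 8 of the 9 fits that leave out 1 library, all but the one without sunitinib replicate 3 (0.16 to 0.21, adjusted p from 0.0551 to 0.153).

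Calls that held with each of the 9 libraries left out in turn numbered 11 of 14 for sunitinib against DMSO, 17 of 24 for compound 32 against DMSO and 14 of 20 for compound 32 against sunitinib. For compound 32 against DMSO these were 15 higher and 2 lower, among them MDM2, PPM1D, TP53INP1, BTG2, PHLDA3, SUSD6, PIDD1 and FDXR.

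A list of 26 regulators of the pathway had 24 tested. With sunitinib 7 were lower and the other 17 did not pass the test, with a median log2 fold change of -0.17. The share called lower with sunitinib was 29.2% and none were higher, against 19.9% lower and 20.3% higher among all genes (40.2% called). With compound 32 the share called in either direction was 25%, near the background of 22.3%. The genes lower with sunitinib included CHEK1, the kinase of the replication checkpoint (-0.82 ± 0.07), and USP7, the deubiquitinase that stabilises MDM2 (-0.47 ± 0.06). WRAP53, which also acts in telomerase trafficking, was lower with sunitinib as well (-0.77 ± 0.10). With compound 32, 3 were higher and 3 lower, with a median of -0.08; PPP1R13L (iASPP), an inhibitor of p53, rose by 0.81 ± 0.11, while the acetyltransferase KAT5 fell by 0.50 ± 0.12 and WRAP53 fell by 0.38 ± 0.09. Against sunitinib, compound 32 had 7 higher and 3 lower, including CHEK1 (0.90 ± 0.07), TP53BP2 (0.79 ± 0.07), which directs p53 to death genes, and PPP1R13L (0.57 ± 0.11), with 41.7% called against 49.2% of all genes. Without sunitinib replicate 3 the counts were 3 and 9 for sunitinib, 3 and 8 for compound 32, and 9 and 5 between them, against backgrounds of 51.4%, 42% and 58.7% called in either direction.

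A list of 40 other p53 targets had 37 tested. With compound 32, 25 were higher and 1 lower (67.6% and 2.70%), with a median of 0.46, against 12% and 10.3% of all genes. With sunitinib 14 were higher and 8 lower (37.8% and 21.6%, against 20.3% and 19.9%), with a median of 0.08, and compound 32 against sunitinib gave 20 and 8 (54.1% and 21.6%, against 24.1% and 25.2%). CDKN1A (p21), the inhibitor of cyclin-dependent kinases that carries much of the p53 arrest, was at 277, 286 and 289.8 CPM in DMSO, at 393, 405 and 378 CPM with sunitinib, and at 663, 685 and 732 CPM with compound 32. The groups were separate and graded, with log2 rises of 0.46 ± 0.07 and 1.29 ± 0.07 and a direct difference of 0.82 ± 0.07 (edgeR adjusted p = 1.64e-06).

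Other named genes of that list fell into separate patterns. GDF15, a secreted stress factor, rose by 1.80 ± 0.08 with sunitinib and 1.39 ± 0.08 with compound 32, and TGFA, a ligand of the EGF receptor, by 1.29 ± 0.08 and 1.23 ± 0.08. SESN2, a brake on mTORC1, rose by 1.09 ± 0.09 with sunitinib and 0.59 ± 0.09 with compound 32. Called in opposite directions were POLH, a translesion DNA polymerase (-0.59 ± 0.08 with sunitinib and 0.84 ± 0.08 with compound 32), SFN, the 14-3-3 protein sigma (-0.48 ± 0.09 and 0.85 ± 0.09), and APAF1, the core of the apoptosome (-0.57 ± 0.10 and 0.83 ± 0.10). Their direct differences were 1.43 ± 0.08, 1.33 ± 0.09 and 1.40 ± 0.10. Without sunitinib replicate 3 this list had 38 tested, with 13 higher and 9 lower for sunitinib, 29 and 3 for compound 32, and 20 and 12 between them, against backgrounds of 51.4%, 42% and 58.7% called.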

How the data were processed

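RNA sequencing counts of 9 HEYA8 libraries (3 each with DMSO, sunitinib and compound 32) were used. The authors deposited raw whole-number counts of reads per gene. The submitters' processing notes list HISAT2 2.0.5, featureCounts, fastp, edgeR and DESeq2, with hg38 and a mouse build. Of 58735 gene identifiers, 58724 matched GENCODE 29 in start, end and strand. Strand-specific counting and the handling of multi-mapping reads are not stated in the sources used here.

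Genes were filtered with filterByExpr and scaled by TMM (factors 0.983 to 1.05). Tests were edgeR 4.0.16 (R 4.3.3) quasi-likelihood F tests, robust, over all 9 libraries, with Benjamini-Hochberg adjustment over 15232 genes and a threshold of 0.05. CPM uses TMM library sizes, and ± is a standard error. The scripts were tested on simulated data. The members, roles and lists were chosen with earlier results of these data known. All members are described; CDKN1A and, per list and comparison, the 3 called genes with the smallest p and at least 5 CPM are named. One gene of the regulator list is not reported here. Alternatives covered scaling, filters, DESeq2 1.42.0, limma voom 3.58.1, a replicate block, only the 6 libraries compared, a threshold of 0.01 and each library left out.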

Additional observations from a re-analysis of the deposited data

How the results depend on the processing

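Of 168 recomputed counts and medians over the members, 161 stayed within a set tolerance. For counts this was a factor of 1.5, so 15 members higher against 22 was within it. For medians it was the larger SD, among the libraries of either group compared, of the members' median in each library. The median for sunitinib against DMSO was 0.23 with upper-quartile scaling and 0.21 with library totals. For compound 32 against sunitinib these scalings gave medians of 0.10 and 0.12 and 7 members lower in both. Upper-quartile scaling moved the median of all genes to 0.10 for sunitinib against DMSO and to -0.12 between the compounds, and the share of higher among all calls from 50.4% to 63.1% and from 48.9% to 39.0%. The cause was not tested.

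Leaving out 1 library gave 9 to 15 higher, 2 to 5 lower and a median of 0.12 to 0.17 for sunitinib against DMSO, with 5 lower without sunitinib replicate 3. The ranges were 15 to 26 higher, 2 lower and 0.35 to 0.37 for compound 32 against DMSO, and 11 to 20 higher, 3 to 5 lower and 0.16 to 0.19 between the compounds. Of 1824 single-gene values, 1626 kept direction and call, 32 that were called in neither fit changed sign, 132 lost a call, 33 gained one, and RPS27L reversed (-0.15 for sunitinib without replicate 3; -0.15 to 0.53 over the libraries left out).

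A replicate block on the sample numbers gave 11 higher and 2 lower for sunitinib, 21 and 2 for compound 32, and 12 and 4 between the compounds. Same-numbered samples did not deviate together (correlations -0.07 to 0.05), and the best match shared the number in 4 of 18 cases, so the numbers were not taken as pairs.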
